A study of Rattus norvegicus with 311 samples.

Results

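Male Sprague Dawley rat hepatocytes were exposed to GW7647, a selective agonist of the nuclear receptor PPAR-alpha, at 0.1 µM for 24 h before sampling on day 3 or day 7 after plating, and were compared with vehicle wells of the same days. The treated group held 15 libraries, 7 of day 3 (4 monoculture, 3 co-culture) and 8 of day 7, and the vehicle group held 16, 8 on each day, so that 31 of the 311 libraries of the series entered the comparison. Libraries were chosen by the dose, day and treatment in the column names of the count table, and 1 treated co-culture library of day 3 on plate 9, which had no vehicle well, was left out. All wells of both groups held primary hepatocytes bought from Lonza on collagen-coated multiwell plates, alone (monoculture) or with non-parenchymal liver cells (co-culture), and the vehicle wells carry a dose of 0 µM. The dose label of the 3 treated co-culture libraries of day 3 reads 1 µM although their names read 0.1 µM, and the names were followed. The labels speak of 4 biological replicates without naming separate animals, and p-values therefore reflect only variation among libraries, which may be technical. On all plates but 1 each condition sat in the same wells, so well position and treatment cannot be told apart.

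PPAR-alpha is a ligand-activated transcription factor that pairs with RXR and binds a direct repeat of the hexamer AGGTCA with 1 spacer base. In rodent liver it is known for raising genes of fatty acid uptake, microsomal omega-hydroxylation, peroxisomal and mitochondrial beta-oxidation and ketone body formation. TempO-Seq, the assay used, counts pairs of detector oligonucleotides ligated on a target RNA, so each gene is read through 1 or a few short probes.

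The upstream sequences of the 4 genes of the PPAR-alpha lists with the smallest p in the comparison and an entry in the RefSeq promoter table (GRCr8) are shown because these genes carry the response. Each covers the 250 bases before the gene's start, 5′ to 3′ on the gene's strand. The intervals are chr5:134170909-134171158 on the minus strand for Cyp4a2, chr4:104749090-104749339 on the plus strand for Fabp1, chr11:92746159-92746408 on the plus strand for Ehhadh and chr6:109367024-109367273 on the plus strand for Acot1. Capitals mark a match to the direct repeat with at most 2 differing letters on either strand, or, where there was none, a single AGGTCA.
Cyp4a2: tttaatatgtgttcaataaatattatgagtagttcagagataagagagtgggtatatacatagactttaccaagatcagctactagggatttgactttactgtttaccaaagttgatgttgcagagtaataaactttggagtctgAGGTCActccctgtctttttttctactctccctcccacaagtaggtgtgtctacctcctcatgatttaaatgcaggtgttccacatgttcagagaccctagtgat
Fabp1: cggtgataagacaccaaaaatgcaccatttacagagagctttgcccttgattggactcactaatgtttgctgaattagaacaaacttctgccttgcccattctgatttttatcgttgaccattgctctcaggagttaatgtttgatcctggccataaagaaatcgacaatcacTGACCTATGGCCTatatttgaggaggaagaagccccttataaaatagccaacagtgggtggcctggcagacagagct
Ehhadh: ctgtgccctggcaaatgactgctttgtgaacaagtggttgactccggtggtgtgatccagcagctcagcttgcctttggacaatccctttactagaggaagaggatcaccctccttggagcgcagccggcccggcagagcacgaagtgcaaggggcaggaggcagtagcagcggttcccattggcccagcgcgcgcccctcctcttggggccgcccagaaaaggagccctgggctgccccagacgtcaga
Acot1: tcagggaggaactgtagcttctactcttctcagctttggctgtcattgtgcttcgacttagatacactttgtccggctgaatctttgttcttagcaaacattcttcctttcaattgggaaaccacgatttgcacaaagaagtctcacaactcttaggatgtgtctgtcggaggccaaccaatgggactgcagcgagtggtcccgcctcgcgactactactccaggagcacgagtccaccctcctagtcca

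In Fabp1 the repeat, read on the minus strand as AGGCCATAGGTCA, differed from the searched letters at 1 position and lay 65 to 77 bases before the start. Cyp4a2 held a single AGGTCA, and the windows of Ehhadh and Acot1 held neither form. Among 7 of the 9 called genes with an entry in the table, Slc27a2 was the other with a repeat, at 2 differing letters and 64 to 76 bases before the start. Of 33469 promoters in the table, 0.368% held the repeat with at most 1 differing letter, 3.15% with at most 2, and 14.1% held AGGTCA on either strand, single hexamers within a repeat included. A match describes letters in the window and is not evidence of binding.

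Library totals were 4749367 to 8969277 counts in treated and 3392976 to 7346547 in vehicle libraries of day 3. On day 7 they were 4146708 to 6342740 counts in treated and 4118609 to 8784797 in vehicle libraries. Genes with at least 1 count numbered 9597 to 13741 in treated and 8224 to 12625 in vehicle libraries on day 3, and 9500 to 14613 in treated and 12775 to 14289 in vehicle libraries on day 7. Levels below are CPM, counts scaled to library size, on 1 scale for all vehicle and GW7647 libraries, and log2 fold changes are GW7647 over vehicle with their standard error (SE). Summed CPM of 20 hepatocyte markers was 7848 to 80773 in treated and 34019 to 70654 in vehicle libraries on day 3, and 4886 to 49239 in treated and 4409 to 20912 in vehicle libraries on day 7. In such pooled lysates fewer cells of a type and less RNA per cell cannot be told apart.

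Across both days, 9 of 12058 genes tested (0.0746%) were called at an adjusted p under 0.05 by the edgeR quasi-likelihood test with Benjamini-Hochberg adjustment. All 9 were higher with GW7647, and all belong to the PPAR-alpha lists, 8 of them to lists of fatty acid and ketone metabolism and Gk to the list of other PPAR-alpha responsive genes. The 8 described here are Cyp4a2, Cyp4a1, Fabp1, Ehhadh, Acot1, Gk, Acat1 and Slc27a2. At an unadjusted p under 0.05, 183 genes were higher (1.52%) and 128 were lower (1.06%). The median log2 change over all genes tested was 0.02. Cyp4a2 and Cyp4a1 passed in each of 12 alternative analyses of the summed counts. Leaving out plate 1 left 3 called genes (Cyp4a2, Cyp4a1 and Fabp1) and leaving out plate 3 left 2 (Cyp4a2 and Cyp4a1), while without the 3 libraries of conflicting dose label 4 were called and Acot1, Gk, Acat1 and Slc27a2 were among those lost.

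**Figure D1:**
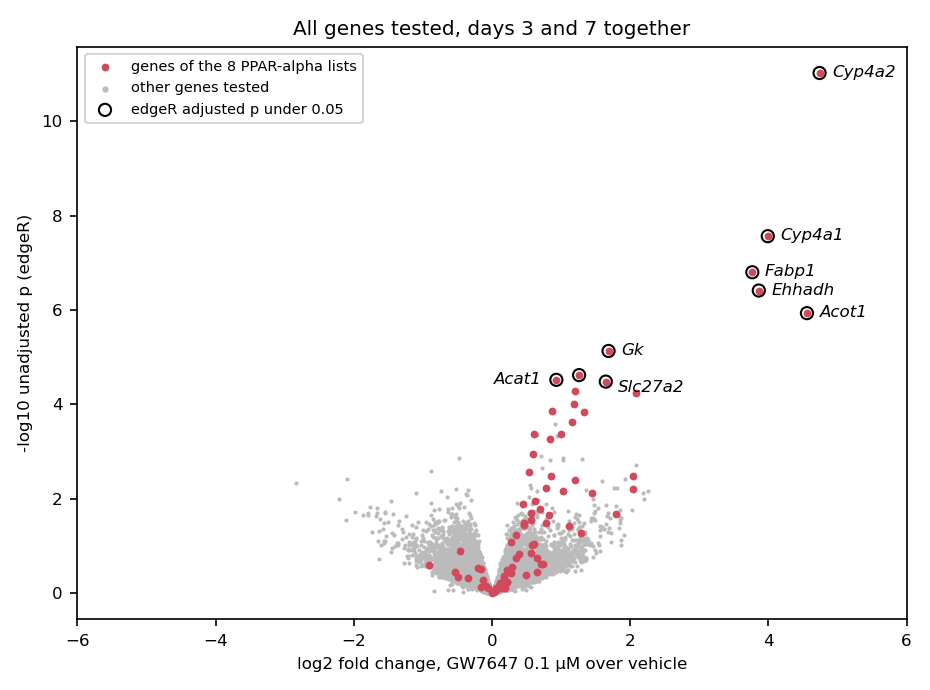
Log2 fold change of GW7647 0.1 µM over vehicle (horizontal axis) against -log10 of the unadjusted edgeR p (vertical axis) for 12058 genes, days 3 and 7 together. Red points are tested genes of the 8 PPAR-alpha lists, grey points are other genes, and the 9 circled genes, 8 of them named and all on the right, had an adjusted p under 0.05.

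The microsomal fatty acid omega-hydroxylases of the Cyp4a family gave the smallest p-values. Cyp4a2 ranged from 73.4 to 959 CPM (median 250.3) in treated libraries of day 3 and from 0.442 to 27.0 CPM (median 3.53) in vehicle libraries. On day 7 it ranged from 36.8 to 1244 CPM (median 52.6) in treated and from 2.98 to 42.6 CPM (median 9.14) in vehicle libraries. The groups did not overlap on day 3 and overlapped on day 7, where the highest vehicle values were both on plate 1. Over both days Cyp4a2 rose by a log2 fold change of 4.74 (SE 0.44, edgeR adjusted p = 1.15e-07) and was higher in 15 of 15 pairs of treated and vehicle libraries that shared plate, culture and day. Cyp4a2 has 3 probes, and tested separately they gave log2 changes of 4.75, 3.19 and 4.51 with edgeR adjusted p-values of 1.18e-07, 0.799 and 1.29e-04. The weakest probe had 115 counts in all treated and 8 in all vehicle libraries. Whether a probe also captures another Cyp4a transcript was not tested.

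Cyp4a1 ranged from 4.98 to 63.5 CPM (median 35.2) in treated libraries of day 3, against 0 to 7.19 CPM (median 0) in vehicle libraries, of which 6 of 8 had no count. Its day 7 values ran from 11.5 to 297 CPM (median 42.4) in treated and from 3.16 to 23.6 CPM (median 8.12) in vehicle libraries. The groups overlapped on day 3 only through the plate 1 co-culture vehicle library at 7.19 CPM and the plate 5 monoculture treated library at 4.98 CPM. Cyp4a1 rose by 3.99 on the log2 scale (SE 0.53, edgeR adjusted p = 1.65e-04) and was higher in 15 of 15 pairs. The other 4 tested members of the omega-hydroxylation list, Cyp4a8, Cyp4f4, Aldh3a2 and Cyp4f17, had log2 changes of 0.74, 0.71, 0.17 and 0.07 and did not pass.

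Fabp1 was the called gene among the 14 tested members of the list of fatty acid uptake, binding and activation, whose median log2 change was 0.11, with 3 higher at an unadjusted p under 0.05 (1.52% of all genes). Fabp1, the cytosolic fatty acid binding protein of hepatocytes, ranged from 4.98 to 231 CPM (median 54.0) in treated and from 3.00 to 19.4 CPM (median 4.76) in vehicle libraries of day 3. Day 7 libraries spanned 4.55 to 2277 CPM (median 172) in treated and 4.16 to 20.3 CPM (median 9.70) in vehicle libraries. Both days overlapped, because treated libraries of plates 5 and 7 on day 3 and of plate 7 on day 7 lay in the vehicle range. Fabp1 rose by 3.77 (log2, SE 0.55, edgeR adjusted p = 6.40e-04) and was higher in 14 of 15 pairs. Slc27a2, an acyl-CoA synthetase that activates very long-chain fatty acids and a member of the peroxisomal list, had medians of 22.1 CPM in treated and 4.93 CPM in vehicle libraries on day 3, and of 30.5 CPM in treated and 15.97 CPM in vehicle libraries on day 7. Its groups overlapped on both days, and it rose by 1.65 (log2, SE 0.34, edgeR adjusted p = 0.0443), with 14 of 15 pairs higher.

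Ehhadh, the bifunctional hydratase and dehydrogenase of peroxisomal beta-oxidation, ranged from 3.89 to 47.2 CPM (median 10.98) in treated and from 0 to 2.54 CPM (median 0.747) in vehicle libraries of day 3. Day 7 values were 1.33 to 222 CPM (median 14.4) in treated and 0.670 to 3.14 CPM (median 2.18) in vehicle libraries. The groups were apart on day 3, while on day 7 both monoculture libraries of plates 5 and 7 stayed within the vehicle range. Ehhadh rose by 3.86 (log2, SE 0.59, edgeR adjusted p = 0.00117), with 14 of 15 pairs higher.

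Acot1, a cytosolic thioesterase that releases fatty acids from acyl-CoA, ranged from 0.943 to 43.1 CPM (median 5.94) in treated libraries of day 3. In vehicle libraries of that day it had 3 counts in all, against 521 in treated libraries, a ratio of 114 per library size with an exact 95% counting interval of 38.7 to 553. On day 7 it ranged from 1.30 to 204 CPM (median 14.99) in treated and from 0.154 to 3.77 CPM (median 0.786) in vehicle libraries. The groups did not overlap on day 3 and overlapped on day 7, where the plate 5 monoculture and both plate 7 treated libraries were in the vehicle range. Over both days the fitted log2 change was 4.56 (SE 0.75, edgeR adjusted p = 0.00283), and 13 of 15 pairs were higher.

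Acat1, the mitochondrial acetoacetyl-CoA thiolase, ranged from 77.0 to 175 CPM (median 103) in treated and from 16.9 to 55.7 CPM (median 45.0) in vehicle libraries of day 3, with no overlap. On day 7 its medians were 82.8 CPM in treated and 74.9 CPM in vehicle libraries and the groups overlapped. It rose by 0.93 over both days (log2, SE 0.19, edgeR adjusted p = 0.0443), with 13 of 15 pairs higher.

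Gk, the glycerol kinase that makes glycerol 3-phosphate, ranged from 35.2 to 365 CPM (median 143) in treated and from 12.9 to 31.4 CPM (median 22.7) in vehicle libraries of day 3, without overlap. On day 7 it ranged from 32.3 to 416 CPM (median 87.7) in treated and from 16.3 to 149.9 CPM (median 66.04) in vehicle libraries, which overlapped. Gk rose by 1.69 (log2, SE 0.31, edgeR adjusted p = 0.0149) and was higher in 15 of 15 pairs.

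**Figure D2:**
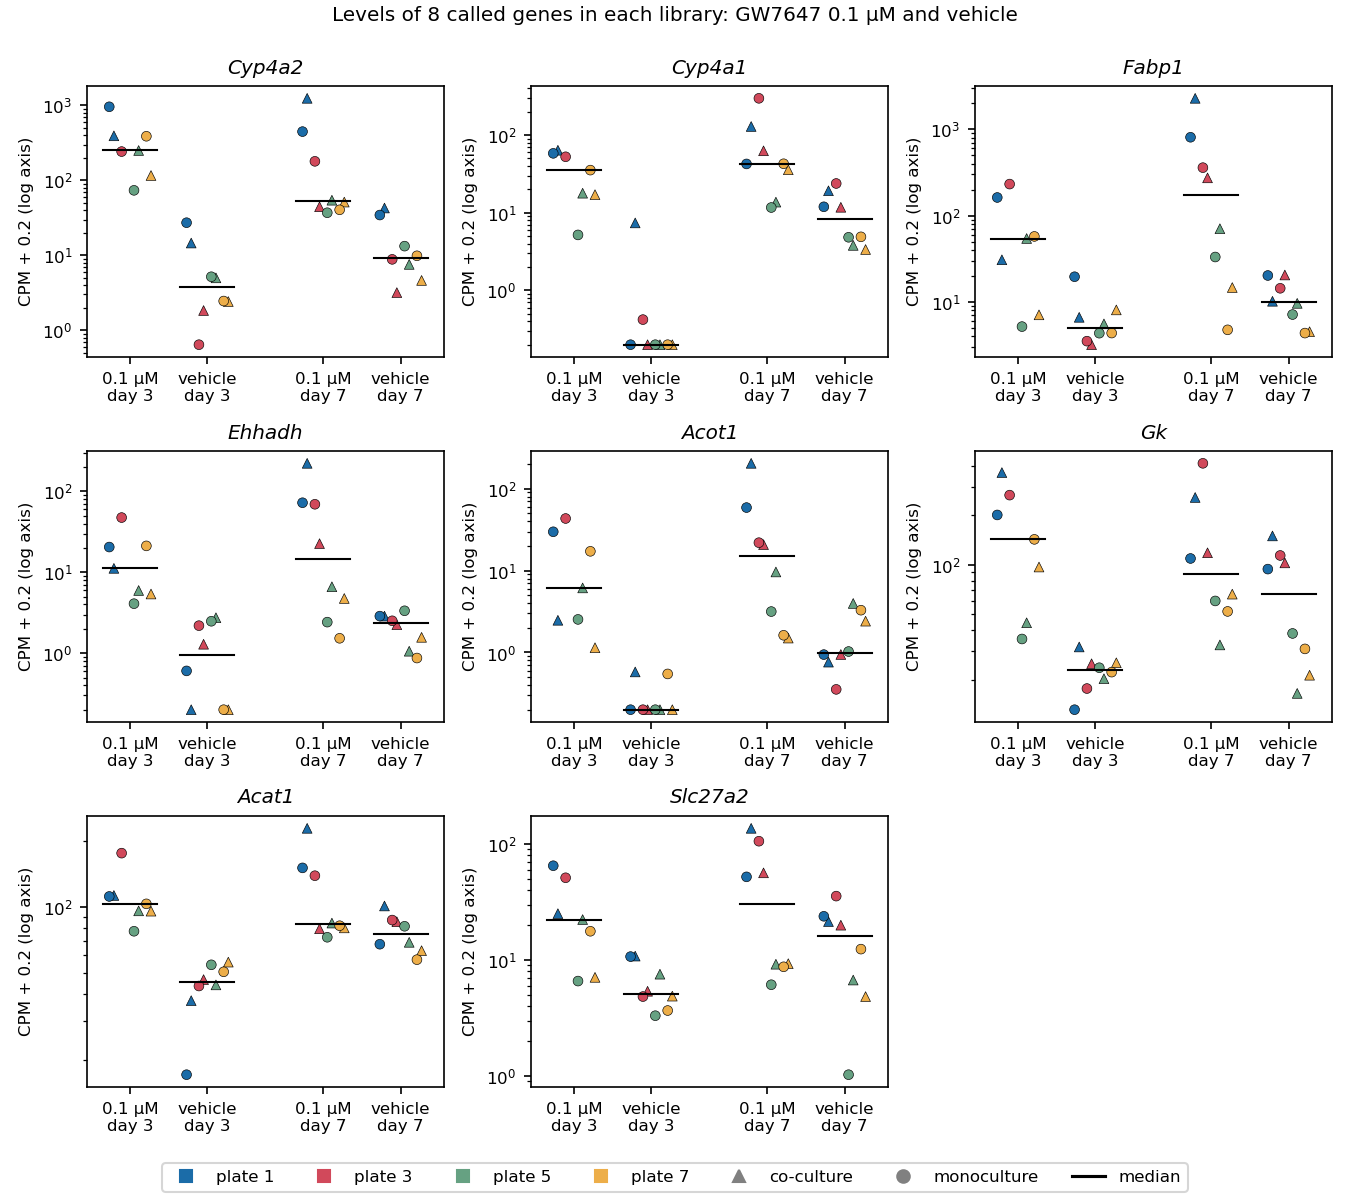
CPM plus an offset of 0.2 on a log axis for 8 of the called genes in each library, with GW7647 0.1 µM left of vehicle on day 3 and on day 7. Colours mark plates, circles monocultures, triangles co-cultures and bars medians; vehicle medians of Cyp4a1 and Acot1 are at 0 on day 3, and treated libraries of plates 5 and 7 are often the lowest.

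The 8 PPAR-alpha lists held 116 genes, of which 97 had a probe and 84 were tested. The lists were chosen with earlier results of these data known, so their counts are not independent support. They contained all 9 called genes, 72 of the 84 had a log2 change above 0, and 38 were higher and 0 lower at an unadjusted p under 0.05, against 1.52% higher and 1.06% lower of all genes tested. Their median log2 change was 0.55, against 0.02 over all genes tested. The peroxisomal list had 10 of 11 tested members higher at an unadjusted p under 0.05 and a median of 0.83. The mitochondrial beta-oxidation list had 7 of 16 with a median of 0.51, none of which passed the adjusted threshold. Medians of the other lists were 0.78 for acyl-CoA thioesterases and for fuel switch and ketogenesis, 0.73 for omega-hydroxylation, 0.35 for other PPAR-alpha responsive genes and 0.25 for lipid droplets and lipases.

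Several well-known PPAR-alpha targets did not pass the threshold. Acsl1, which activates long-chain fatty acids, had a log2 change of 1.199 (edgeR adjusted p = 0.0627), and Cpt1b, the muscle-type carnitine palmitoyltransferase, one of 2.08 (edgeR adjusted p = 0.0645). Acaa2, a mitochondrial thiolase, had 1.18 (edgeR adjusted p = 0.0973). Creb3l3, a liver transcription factor of triglyceride metabolism, had 1.33 (edgeR adjusted p = 0.125) and was higher in 15 of 15 pairs. Plin2, a lipid droplet coat protein, had 0.84 (edgeR adjusted p = 0.309). The thioesterase Acot7, a further list member, had 1.01 (edgeR adjusted p = 0.277) and was higher in 14 of 15 pairs.

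For each of the following PPAR-alpha genes edgeR gave an adjusted p of 0.994. Acot2, a mitochondrial thioesterase, had a log2 change of 1.204, the fatty acid transporter Cd36 one of 1.44, the hepatokine Fgf21 0.78, the pantetheinase Vnn1 0.69, Ppara itself 0.43, the carnitine palmitoyltransferase Cpt1a 0.34 and the mitochondrial carrier Ucp2 0.11. Pdk4, a kinase that inhibits pyruvate dehydrogenase, had 1.79 (SE 0.73) on few counts, 55 and 211 in treated libraries of days 3 and 7 and 11 and 49 in vehicle libraries. No value here shows that these genes did not respond. Acaa1a had no probe of that name.

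**Figure D3:**
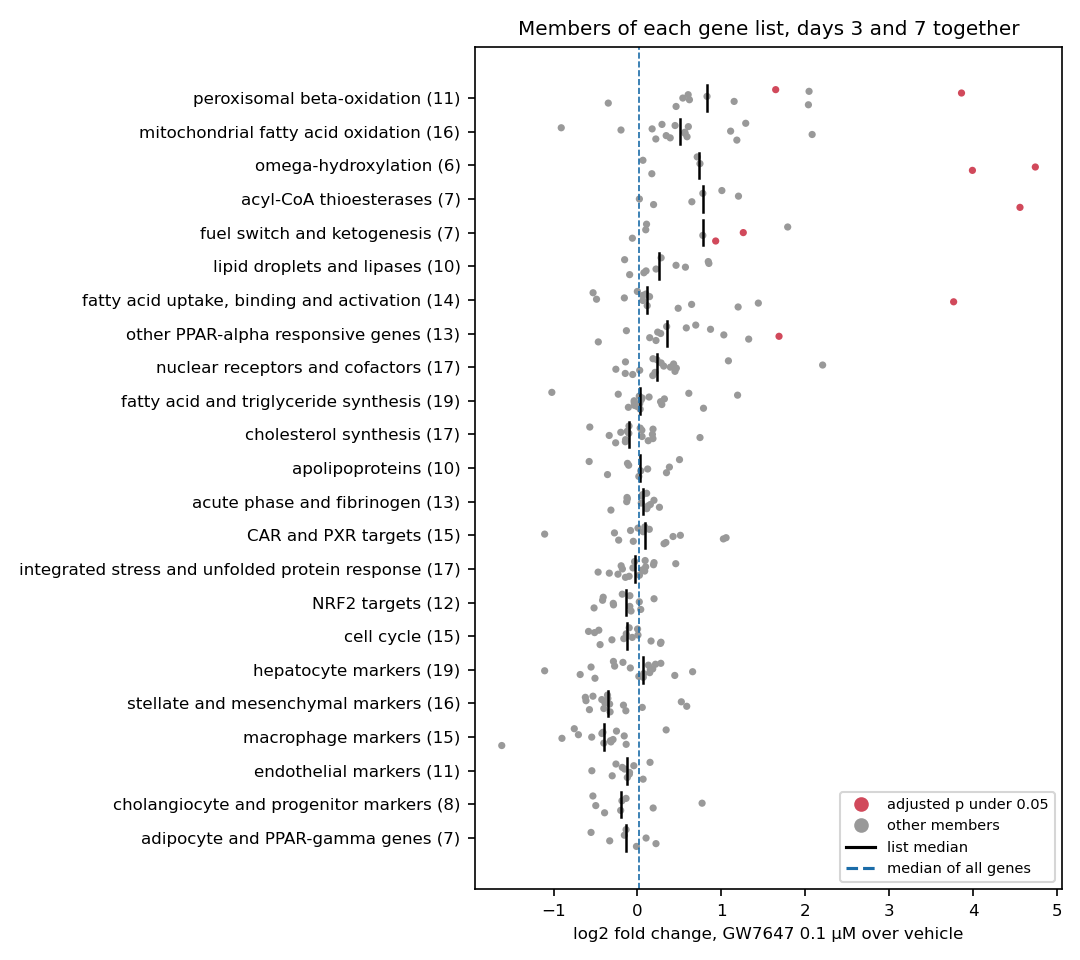
Log2 fold change of GW7647 0.1 µM over vehicle (horizontal axis) for the tested members of each of 23 gene lists, days 3 and 7 together, with the number tested in brackets. Red points had an edgeR adjusted p under 0.05, black bars are list medians and the dashed line is the median of all genes; the medians of the 5 upper lists lie between 0.51 and 0.83.

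On day 3 alone, 10 of 10497 genes tested were called by edgeR (0.0953%), 9 of them higher (0.0857%) and 1 lower. At an unadjusted p under 0.05, 803 genes were higher (7.65%) and 682 lower (6.5%), and the median log2 change of all genes was 0.11. With RLE size factors 10 genes were called higher and 3 lower, and DESeq2 called 273 higher and 171 lower. Leaving out plates 1, 3, 5 and 7 in turn left 2, 2, 3 and 1 called genes, among which Cyp4a2 was present each time. Cyp4a2 rose by 5.88 (log2, SE 0.50, edgeR adjusted p = 4.69e-05), Cyp4a1 by 6.54 (SE 0.85, 0.00666) and Acot1 by 6.58 (SE 0.98, 0.0176). Gk rose by 2.61 (log2, SE 0.39, edgeR adjusted p = 0.0176) and Acat1 by 1.39 (SE 0.24, 0.0328). The fitted changes of Cyp4a1 and Acot1 rest on vehicle groups with 6 of 8 libraries at 0. Ehhadh (4.28), Fabp1 (3.20) and Slc27a2 (2.03) did not pass on this day, with edgeR adjusted p-values of 0.0936, 0.104 and 0.103.

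The other 4 genes called on day 3 are in none of the PPAR-alpha lists and were named after their values were seen. Tgm1, a transglutaminase, ranged from 15.2 to 47.3 CPM in treated and from 5.25 to 10.8 CPM in vehicle libraries without overlap (log2 change 1.62, SE 0.27, edgeR adjusted p = 0.0328). Chkb, a choline and ethanolamine kinase, ranged from 26.7 to 47.6 CPM in treated and from 6.06 to 22.3 CPM in vehicle libraries without overlap (1.39, SE 0.24, 0.0434). Slc30a10, a manganese transporter, ranged from 10.6 to 135 CPM in treated and from 4.35 to 31.8 CPM in vehicle libraries, which overlapped (1.64, SE 0.28, 0.0328). On day 7 their changes were 0.28, -0.07 and 0.40 and did not pass. None of the 4 was called on day 3 with any 1 plate left out.

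Tpm2, a tropomyosin of contractile cells, was the called gene that fell, by 1.62 on the log2 scale (SE 0.27, edgeR adjusted p = 0.0328). It ranged from 27.2 to 236 CPM (median 128) in treated and from 186 to 592 CPM (median 362) in vehicle libraries of day 3. It was lower in 7 of 7 pairs. Day 3 medians of Tpm2 at 0.01 and 1 µM GW7647 were 134 and 152 CPM, and the part of the vehicle libraries in this difference was not tested. The 10 tested stellate and mesenchymal markers of day 3 all had changes under 0, with a median of -0.83 and 4 lower at an unadjusted p under 0.05 (6.5% of all genes). Their summed level was 403 to 1560.0 CPM in treated and 665 to 1796 CPM in vehicle libraries, with Col1a1, Lum and Postn at 0 in all treated and Des and Lum at 0 in all vehicle libraries. The part of these markers in the Tpm2 value was not tested. Medians of the other cell type lists on day 3 were also under 0. They were -0.19 for hepatocyte, -0.55 for macrophage, -0.37 for endothelial, -0.77 for cholangiocyte and progenitor markers and -0.24 for adipocyte genes. The median of all genes was 0.11. Stellate and mesenchymal markers of day 7 had a median of -0.09, against -0.08 over all genes, with 6 of 15 tested above 0. On day 7 Tpm2 ranged from 35.1 to 7141 CPM in treated and from 186 to 5652 CPM in vehicle libraries, with a log2 change of 0.44 that did not pass.

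On day 7 alone, 2 of 11295 genes were called by edgeR (0.0177%), both higher, and at an unadjusted p under 0.05 there were 75 higher (0.664%) and 176 lower (1.56%). Cyp4a2 rose by 3.46 (log2, SE 0.47, edgeR adjusted p = 0.0337) and Cyp4a1 by 2.72 (SE 0.40, 0.0458). DESeq2 called 5 genes on this day, RLE size factors gave 1 (Cyp4a2), and 0 were called by edgeR without the plate term (164 at an unadjusted p under 0.05) or with any 1 plate left out (105 to 1684). Fabp1 (3.59), Ehhadh (3.26) and Acot1 (3.26) did not pass, with edgeR adjusted p-values of 0.571, 1 and 1. Of the 8 genes described over both days, 5 had groups that did not overlap on day 3 and 0 on day 7. These 8 were called from the same libraries, and the share of all genes tested without overlap is not given here.

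The difference between the days was tested as an interaction, and 0 of 12058 genes were called by edgeR (1422 at an unadjusted p under 0.05, smallest adjusted p 0.417) and 14 by DESeq2. The median difference over all genes was -0.30. Day 7 minus day 3 was -3.57 (SE 0.88) for Cyp4a1, -2.40 (SE 0.65) for Cyp4a2, -3.04 (SE 0.82) for Cd36 and -1.56 (SE 0.54) for Gk, each with an edgeR adjusted p of 0.417. For Fabp1 it was 1.06 (SE 1.03, 0.603). The Cd36 values were 21.2 CPM in treated and 2.84 CPM in vehicle libraries (medians) on day 3 and 18.4 CPM in treated and 17.9 CPM in vehicle libraries on day 7. The vehicle median of Cd36 was higher on day 7 than on day 3.

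Cultures were compared in the same way, without a repeat that left out the treated co-culture libraries of conflicting dose label. The response in co-culture minus that in monoculture gave 0 called genes of 12058 by edgeR, with 75 at an unadjusted p under 0.05 and a smallest adjusted p of 1, and 0 by DESeq2 (154 at an unadjusted p under 0.05). Within co-cultures 1 of 11342 genes was called (0.00882%) and within monocultures 1 of 10969 (0.00912%), in both cases Cyp4a2. Its log2 change was 4.67 (SE 0.45, edgeR adjusted p = 6.29e-04) in co-culture and 4.46 (SE 0.66, edgeR adjusted p = 0.0401) in monoculture. Fabp1 had 3.55 in co-culture and 3.66 in monoculture, Acot1 had 4.09 in co-culture and 4.83 in monoculture, and the difference between cultures was 0.04 (SE 0.84) for Cyp4a2 and -0.12 (SE 1.05) for Fabp1.

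The size of the response was also set side by side by plate. Within plates 1, 3, 5 and 7 edgeR called 8, 1, 0 and 2196 genes, or 0.0663%, 0.00829%, 0% and 18.2% of 12058, with 1428, 224, 128 and 4254 at an unadjusted p under 0.05. Cyp4a2 was nearly even, at 4.70, 5.35, 3.94 and 5.00 on plates 1, 3, 5 and 7. Fabp1 had 5.42 and 4.86 on plates 1 and 3 and 2.70 and 2.06 on plates 5 and 7. Acot1 had 6.71 and 6.83 on plates 1 and 3 and 2.95 and 2.05 on plates 5 and 7. All 8 genes had positive changes on every plate. They were called as higher from these same libraries, so the signs are not separate support. A test of any difference among the 4 plates, added after these values were seen, called 0 of 12058 genes (2860 at an unadjusted p under 0.05, smallest edgeR adjusted p 0.0581), with Ehhadh at 0.111 and Fabp1 at 0.167. DESeq2 called 1554 genes in that test, and edgeR called 144 without the filter on low counts and 2853 without plate 1.

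**Figure D4:**
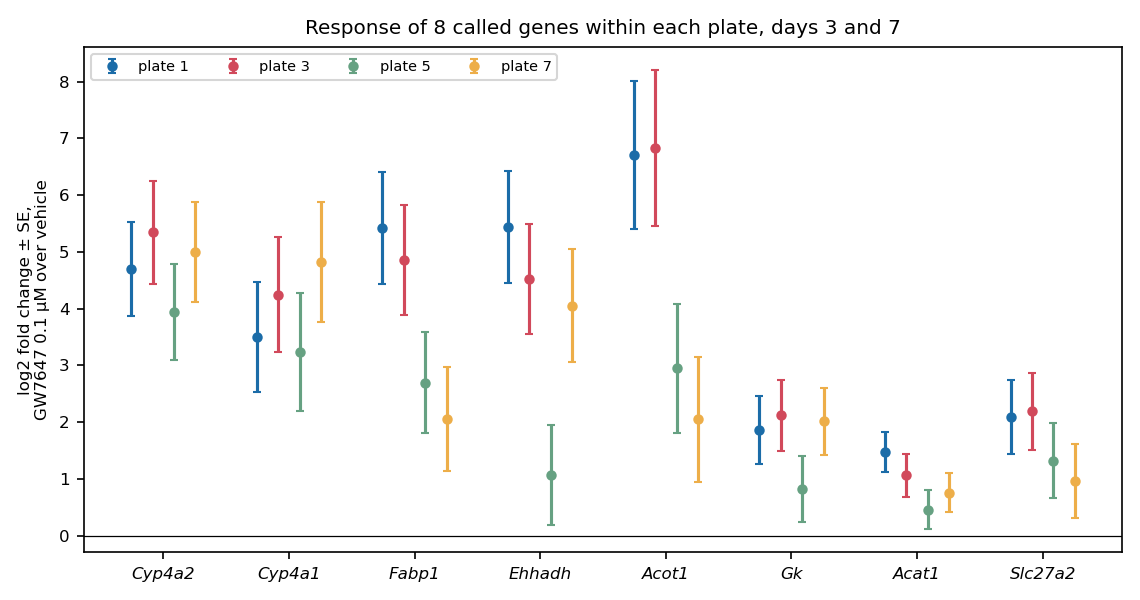
Log2 fold change of GW7647 0.1 µM over vehicle within each plate (vertical axis, bars ± SE from the edgeR fit) for 8 of the called genes, days 3 and 7 together. All values lie above 0 for these genes, which were called from the same libraries. Fabp1 and Acot1 are lower on plates 5 and 7 than on plates 1 and 3.

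On plate 7, 781 of the called genes were higher and 1415 lower. The treated libraries of that plate had 13380 to 14613 genes detected and TMM scaling factors of 1.09 to 1.68, against 10536 to 13118 genes and factors of 0.769 to 1.11 in its vehicle libraries. Their totals were 5724255 to 8969277 counts in treated and 4801677 to 8784797 in vehicle libraries. The part of detection and scaling in the plate 7 calls was not tested. The named day 3 genes outside the PPAR-alpha lists were called within this plate, with log2 changes of 1.61 for Tgm1, 1.44 for Chkb, 1.89 for Slc30a10 and -2.90 for Tpm2 (edgeR adjusted p 0.0199, 0.0427, 0.0239 and 0.0333), and within no other plate.

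GW7647 was also given at 0.01 and 1 µM on the same days. In a fit of all 3 doses, which share the vehicle libraries, edgeR called 1, 8 and 39 of 12683 genes at 0.01, 0.1 and 1 µM (0.00788%, 0.0631% and 0.307%), all higher. Median Cyp4a2 was 6.17 CPM in vehicle and 28.8, 179 and 186 CPM at 0.01, 0.1 and 1 µM, and Cyp4a2 was the gene called at the lowest dose (log2 change 2.61, SE 0.49, edgeR adjusted p = 0.0184). Median Fabp1 was 6.69 CPM in vehicle and 12.2, 57.1 and 141 CPM at the rising doses, and median Acot1 was 0.363 CPM in vehicle and 1.19, 9.42 and 38.3 CPM. Medians of these genes stood higher at each higher dose, and Gk, at 24.95 CPM in vehicle and 65.3, 109 and 92.4 CPM, did not. Several genes short of the threshold at 0.1 µM were called at 1 µM in this fit, among them Plin2 (1.18, SE 0.23, edgeR adjusted p = 0.00373), Pdk4 (3.14, SE 0.70, 0.0154) and Cd36 (2.32, SE 0.55, 0.0326).

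The doses were then tested against each other, with the libraries of conflicting dose label kept at 0.1 µM. At 1 µM against 0.1 µM edgeR called 0 of 12683 genes (489 at an unadjusted p under 0.05, smallest adjusted p 0.0904), and at 0.1 µM against 0.01 µM 0 genes (111, 0.299). DESeq2 called 0 genes (706 at an unadjusted p under 0.05) for the higher pair of doses and 1 for the lower pair. Acot1 was 2.41 higher on the log2 scale at 1 than at 0.1 µM (SE 0.71, edgeR adjusted p = 0.781), Fabp1 1.61 (SE 0.59) and Cyp4a2 0.51 (SE 0.46), and a missed threshold does not show equal responses. Cyp4a1 was 2.17 higher at 0.1 than at 0.01 µM (SE 0.51, edgeR adjusted p = 0.299) and Cyp4a2 2.00 (SE 0.47, 0.299). The 1 µM co-culture library of plate 3 on day 3 stood apart, with Cyp4a2 at 0.4933 CPM, and its label was kept. The other 1 µM libraries of that day held 186 to 1672 CPM and the vehicle libraries 0.442 to 27.0 CPM. Gk and Acot1, at 14.3 and 0 CPM, were also within their vehicle ranges of 12.9 to 31.4 and 0 to 0.378 CPM. Without this library, edgeR called 1, 13 and 53 of 12676 genes at the 3 doses (0.00789%, 0.103% and 0.418%). At 0.1 µM Acat1 then had an edgeR adjusted p of 0.0119, against 0.0729 with the library. The log2 change of 1 over 0.1 µM was then 2.47 (SE 0.70) for Acot1, 1.70 (SE 0.57) for Fabp1 and 0.60 (SE 0.43) for Cyp4a2.

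**Figure D5:**
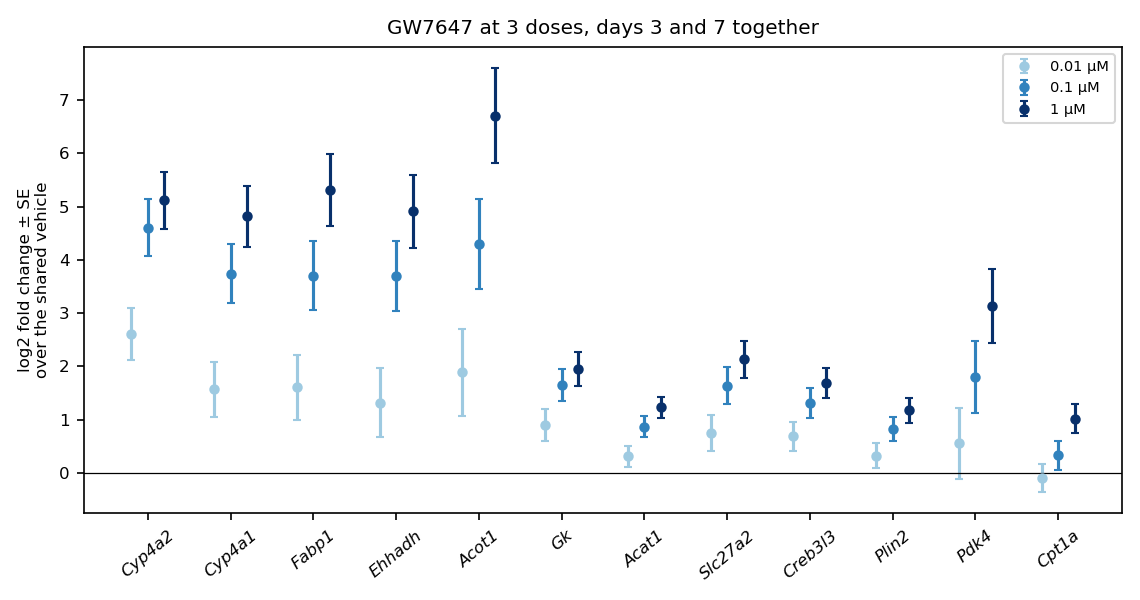
Log2 fold change over the shared vehicle libraries (vertical axis, bars ± SE) at 0.01, 0.1 and 1 µM GW7647 for 8 of the called genes and 4 further PPAR-alpha targets, days 3 and 7 together, with doses taken from the library names. Fitted changes rise with dose for each gene shown, and Acot1 has the widest range, 1.89, 4.30 and 6.71.

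On day 1 the same dose gave 3542 called genes of 10554 by edgeR (33.6%), against 10 and 2 on days 3 and 7. The response of days 3 and 7 minus that of day 1 was called for 1 of 12536 genes (0.00798%), Acot7, a cytosolic acyl-CoA thioesterase, at -2.16 (SE 0.35, edgeR adjusted p = 0.00205). That call was lost, leaving 0 genes, with plate 3, 5 or 7 left out (183, 369 and 1921 at an unadjusted p under 0.05), and DESeq2 called 16 genes. Acot7 was 47.9 to 174 CPM (median 86.4) in treated and 6.56 to 15.97 CPM (median 9.89) in vehicle libraries on day 1, apart from each other. On day 3 it was 26.7 to 122 CPM (median 37.2) in treated and 4.84 to 27.5 CPM (median 18.0) in vehicle libraries, and on day 7 48.6 to 181.8 CPM (median 90.5) in treated and 44.8 to 146 CPM (median 66.9) in vehicle libraries. Fabp1 ran the other way, at 0.96 (SE 0.31) in a fit of day 1 alone. In the joint fit of days 1, 3 and 7 its response was 3.48 higher on days 3 and 7 (SE 0.87, edgeR adjusted p = 0.91). That difference did not pass, and values of separate fits cannot be added. Pdk4 had 4.33 (SE 0.42, edgeR adjusted p = 1.26e-05) in the fit of day 1 alone. Its difference of days 3 and 7 from day 1 in the joint fit was -2.56 (SE 0.99, edgeR adjusted p = 0.91).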

How the data were processed

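RNA of cultured rat hepatocytes was measured by TempO-Seq. The deposited table holds raw counts per probe and library, per its whole-number values, for 22253 probes and 311 libraries, and Bowtie is named without a version in the submitters' processing notes. Genome build and probe sequences: not given in the sources used here. Probe counts were summed by symbol (21143 symbols, 987 of them with several probes). Counting noise sets the precision of genes with few counts. Groups came from the library names, and the plate number was the replicate number.

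The summed counts went into edgeR 4.0.16 under R 4.3.3. Genes passed filterByExpr at a minimum count of 10, TMM factors set the scale, and two-sided quasi-likelihood tests were used, with p-values adjusted after Benjamini and Hochberg across every gene tested and a threshold of 0.05. The fit had terms for day by culture and for plate. The SE is the size of the log2 change divided by the root of F. CPM used TMM scaling over all vehicle and GW7647 libraries. The steps were tested on simulated data. No libraries were identical. The interval of the Acot1 ratio covers counting error only.

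Plates are a shared plate number in the library names. Residuals of libraries from the same plate and other groups had a mean correlation of 0.183 (105 pairs), against -0.059 for other plates (315 pairs), and 9 of 15 matched pairs of treated and vehicle libraries were over 0.1.

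Named genes were 17 PPAR-alpha targets with a probe, the called genes with a mean of at least 10 CPM in the comparison of both days (up to 10 in each direction), up to 3 called members of each list, and up to 4 called genes of each other comparison. The remaining genes called on day 3 were added after their values were seen. Some named genes and their values are not reported here. The comparison, its members and the gene lists were chosen with earlier results of these data known. Alternatives were DESeq2 1.42.0, RLE size factors, no filter on low counts, no plate term, each plate left out, library total as a covariate, the plate 9 library included, and the libraries with conflicting dose labels left out. Probes tested separately, genes detected as a covariate, the test among plates and the removal of 1 library at 1 µM were chosen after seeing the data.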

Additional observations from a re-analysis of the deposited data

Results flagged for a closer look

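The GW7647 0.1 µM co-culture library of plate 9, sampled on day 3, has no vehicle well on its plate and entered none of the comparisons of the report, only an alternative fit without the plate term. It was above the highest co-culture vehicle library of day 3 for each of 8 called genes, with Cyp4a2 at 31.6 CPM, against 1.63 to 14.4 CPM in vehicle libraries, and Cyp4a1 at 21.2 CPM, against 0 to 7.19 CPM. Fabp1 was at 65.7 CPM, against 3.00 to 7.88 CPM, Ehhadh at 10.995 CPM, against 0 to 2.54 CPM, and Acot1 at 7.38 CPM, against 0 to 0.378 CPM. Gk was at 45.4 CPM, against 20.1 to 31.4 CPM, and Slc27a2 at 15.9 CPM, against 4.68 to 10.6 CPM. Acat1 at 306 CPM, against 37.1 to 55.7 CPM, was also above every treated co-culture library of day 3 on the other plates. Cyp4a2 was below every 1 of those treated co-culture libraries, which held 116 to 393 CPM. Plate and treatment cannot be told apart for this library. The share of all genes in which it was above the same vehicle libraries is not given here.

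Acot7 had the called difference between the response of days 3 and 7 and that of day 1, at -2.16 on the log2 scale, and its median in vehicle libraries was 9.89, 18.04 and 66.9 CPM on days 1, 3 and 7.

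Of 161 sets of 4 libraries, 1 per gene and group over 23 named genes, 12 held a library far from the other 3, and chance alone gives about 1 in 20. In 7 of the 12 the other 3 libraries had no count, so that any count stood out and that rate does not apply to them. Treated libraries of co-culture plate 1 on day 7 stood out for Cyp4a2, at 1244 CPM against 44.3 to 54.2 CPM in the other plates, and for Acat1, at 227 CPM against 79.0 to 83.9 CPM. In treated monoculture, Cd36 on plate 5 of day 3 was low at 2.33 CPM, against 34.8 to 41.9 CPM. Acot7 on plate 5 of day 7 was high at 181.8 CPM, against 87.0 to 94.7 CPM, and Pdk4 on plate 7 of day 3 at 1.66 CPM, against 0.

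In vehicle co-culture of day 3, plate 1 was the high library for Cyp4a1 at 7.19 CPM, Pdk4 at 3.03 CPM and Acot1 at 0.378 CPM, each against 0. In vehicle monoculture of day 3, Fabp1 on plate 1 was at 19.4 CPM, against 3.31 to 4.16 CPM, and Cyp4a1 on plate 3 was at 0.221 CPM, Acot1 on plate 7 at 0.347 CPM and Pdk4 on plate 5 at 0.622 CPM, each against 0.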

How the results depend on the processing

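Cyp4a2 and Cyp4a1 passed over both days in 12 of 12 alternatives on summed counts, with log2 changes of 4.38 to 4.98 and 3.62 to 4.40 and highest adjusted p-values of 2.10e-04 and 0.0159. Fabp1 passed in 11, Ehhadh in 10, Acot1 in 9, Slc27a2 and Acat1 in 5 and Gk in 4, each with its direction kept. Over both days, day 3 and day 7 the numbers of called genes were 9, 10 and 2 in the report, 11, 13 and 1 with RLE size factors, 24, 444 and 5 with DESeq2, 8, 25 and 2 without the filter on low counts, and 7, 7 and 0 without the replicate block, the plate term. They were 5, 6 and 1 with library total as a covariate, 19, 76 (22 higher, 54 lower) and 3 with genes detected as a covariate, and 10, 11 and 2 with probes tested separately. With the plate 9 library and no block they were 8 over both days and 8 on day 3, and without the 3 libraries of conflicting dose label 4 and 5. Leaving out 1 plate at a time gave 2 to 7 genes over both days, 1 to 3 on day 3 and 0 to 0 on day 7. For the difference between days DESeq2 called 14 genes and leaving out a plate 0 to 1 (1 without plate 1), and for 0.1 against 0.01 µM DESeq2 called 1. For days 3 and 7 against day 1 DESeq2 called 16 and leaving out a plate 0 to 1. For the difference among plates the counts were 1554 with DESeq2, 144 without the filter and 0 to 2853 with a plate left out. Culture differences and 1 against 0.1 µM had 0 called genes in all their alternatives, none of which left out the 3 libraries of conflicting dose label. Plin2, Creb3l3, Acot7 and Tgm1 passed over both days with DESeq2 and with genes detected as a covariate. Ucp2 turned to -0.0162 without the block and spanned -0.0902 to 0.56 with a plate left out, and Tpm2 spanned -1.26 to 3.34e-05. The cause of these shifts was not tested, and fits that left out libraries also had fewer of them. Without the block the calls lost were Gk and Slc27a2 over both days, Chkb, Slc30a10 and Tpm2 on day 3, and Cyp4a2 and Cyp4a1 on day 7. Few counts limit Acot1, Cyp4a1 and Pdk4 in vehicle libraries.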

Other observations

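Of the 23 lists, those other than the 8 PPAR-alpha lists held no called gene over both days. Nuclear receptors and cofactors had 17 tested members with a median log2 change of 0.23, and Nr1i3, which encodes the xenobiotic receptor CAR, had 2.21 (SE 0.80, edgeR adjusted p = 0.994). Targets of CAR and PXR had 15 tested members with a median of 0.09, among them Cyp2b2 at 1.06 and Cyp3a2 at -1.11, neither of which passed.

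Lists of lipid synthesis had medians near that of all genes. Fatty acid and triglyceride synthesis had 19 tested members and a median of 0.03, with the regulator Srebf1 at 0.61 and the desaturase Scd1 at 1.19, and cholesterol synthesis had 17 and a median of -0.10. Acute phase genes had 13 and 0.06, NRF2 targets 12 and -0.14, stress response genes 17 and -0.03, and cell cycle genes 15 and -0.12. The median over all genes tested was 0.02. Macrophage markers had 15 tested members, 1 of them above 0, and a median of -0.40, with summed levels of 66.7 to 610 CPM in treated and 171 to 762 CPM in vehicle libraries on day 3 and of 153 to 2771 CPM in treated and 432 to 2064 CPM in vehicle libraries on day 7. Timd4 was at 0 in all libraries of day 3, Adgre1 in all treated libraries of day 7 and Timd4 in all vehicle libraries of day 7. Stellate and mesenchymal markers had a median of -0.35 over both days (3 of 16 tested above 0) and endothelial markers -0.12 (2 of 11). Cholangiocyte and progenitor markers had -0.19 (2 of 8), adipocyte genes -0.14 (2 of 7) and hepatocyte markers 0.07 (11 of 19).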
